A study of Mus musculus with 237 samples.

Results

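The hair placode signals and regulators are 10 of the 55335 genes in the count table. They are Shh, Fgf20, Wnt10b, Bmp2, Dkk4, Sostdc1, Edar, Lef1, Lhx2 and Trps1, taken by the Ensembl identifier of each symbol. They were selected on measured values: most of them stood high in 1 wild-type cell labelled as basal layer, WT-KCB cell 2, and a further search took every cell of the table with both Shh and Dkk4. Their levels are therefore given as a description, and no difference between groups was tested.

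The study profiled single cells from the skin of 10 C57BL/6N mouse embryos at E14.5, of which 3 were wild type and 7 were p63 knockouts made by CRISPR-Cas9 in zygotes. Full-length cDNA of every cell was prepared with SMART-Seq HT, which adds no molecular identifiers. Wild-type epidermis was separated with dispase before trypsin, and knockout fetuses were digested with trypsin directly. Cells without CD45, TER119 and CD140a were sorted. The paper states that libraries were selected by qPCR for Krt5 (wild type) or Krt8 (knockout), so keratin levels also reflect that screen. Some columns have no Krt5 or Krt8 count, and 70 cells are labelled as knockout fibroblasts, so not every column shows it. The labels describe 237 cells, and the count table has 237 columns. For 16 columns the cell is known, all of wild-type embryo WT01: 11 WT-KCB cells of the basal layer, 1 WT-KCI cell of the intermediate layer and 4 WT-KCP cells, labelled K17 high and named by the authors as periderm. The other 221 columns could not be joined to a label, so they were used as 1 pool without genotype, embryo or cell type. Each is named here by its position in the table, as in column 136. Column totals ran from 2701500 to 19197138 counts with a median of 6938031, and levels are given as CPM, the count scaled to a column total of 1000000. With 1 embryo among the known cells there were no replicates.

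Hair follicles begin as placodes, small thickenings of the embryonic epidermis that form where Wnt, Eda and Fgf signals are high and where Bmp signals are held in check. Placode cells send signals to each other and to the dermis beneath, and they switch on secreted inhibitors that help to set the spacing between follicles. Shh made by the placode then drives its downgrowth.

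WT-KCB cell 2 was the only 1 of the 237 columns with Shh and Dkk4 both at 10 CPM or more. It had 9 of the 10 genes at that level, more than any other column. Column 136 and WT-KCP cell 4 came next with 7 each. The genes otherwise split into 2 kinds: Shh, Dkk4, Fgf20 and Lhx2 each reached 10 CPM in 6 or fewer columns, and Bmp2, Trps1, Sostdc1 and Lef1 in 71 to 155 columns. Edar, in 24 columns, and Wnt10b, in 42, lay between.

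**Figure D1:**
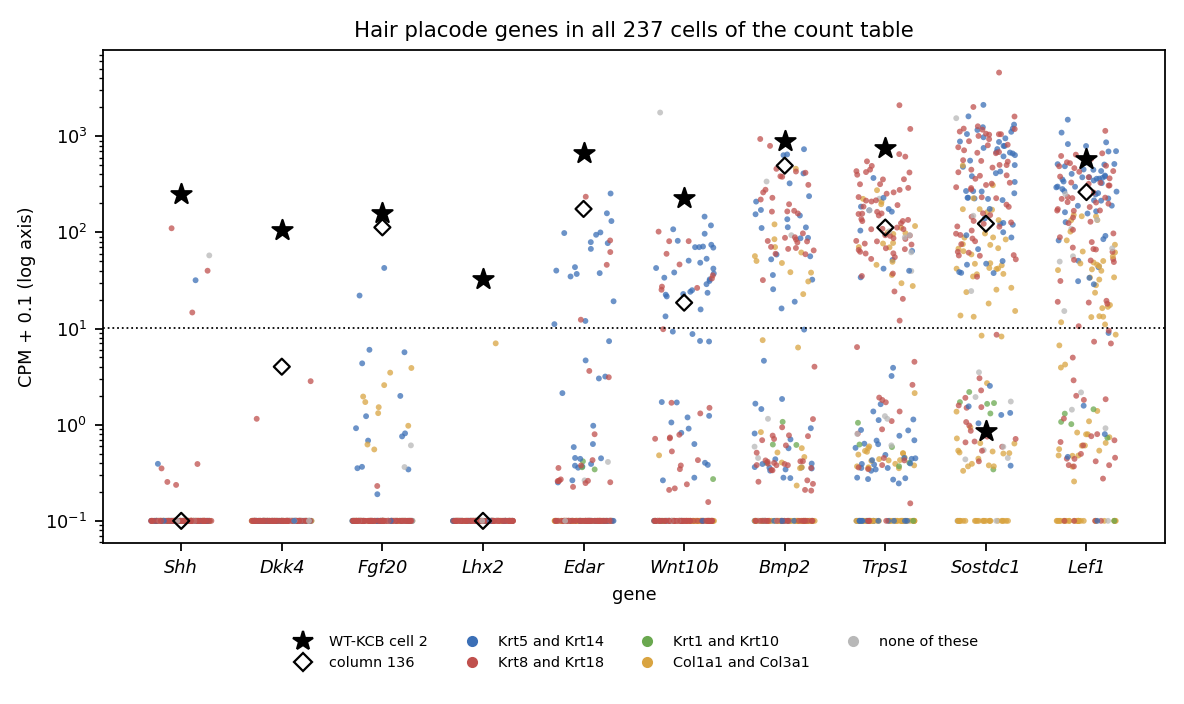
Level of each placode gene in all 237 columns, as CPM plus 0.1 on a log axis, with 1 point per column coloured by the marker pair that reaches 100 CPM (blue over red where both keratin pairs do) and a dotted line at 10 CPM. WT-KCB cell 2 (star) is the highest column for Shh, Dkk4, Fgf20, Lhx2 and Edar and lies at 0.763 CPM for Sostdc1, and column 136 (diamond) has no Shh count.

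Among the signals, Shh, the Hedgehog ligand of the placode, had a count in 11 columns and reached 10 CPM in 6, which is 2.53% of columns (exact 95% binomial interval 0.935% to 5.43%). The lowest column above the threshold for Shh had 14.6 CPM and the highest below it 0.292 CPM. In WT-KCB cell 2 it had 1990 counts, or 253.0 CPM (exact 95% Poisson interval 242.0 to 264.4). These intervals cover counting error only, because copies made by amplification were not told apart from original molecules. Shh (ENSMUSG00000002633) lies on the minus strand of chromosome 5 of GRCm38, from 28456815 to 28467256. Its exons share 446 bases with the antisense gene 9530036O11Rik and 361 bases with Gm26894, and strand use in counting is not stated, so reads of the shared bases cannot be told apart.

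Fgf20, a fibroblast growth factor that placodes send to the dermis, had a count in 30 columns and 10 CPM or more in 4. These were WT-KCB cell 2 at 158.2 CPM (interval 149.5 to 167.2), column 136 at 112.6, column 110 at 42.5 and column 126 at 21.9. The next column had 5.91 CPM. Fgf20 (ENSMUSG00000031603, chromosome 8, 40279166 to 40308331, minus strand) shares 202 exon bases with Micu3 on the other strand.

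Wnt10b, a Wnt ligand of the early placode, reached 10 CPM in 42 columns, or 17.7% (interval 13.1% to 23.2%). Its highest value, 1762 CPM, was in column 229, where Krt8 had 2452 CPM and Krt18 5.64 CPM. WT-KCB cell 2 was next at 229.7 CPM. Its gene (ENSMUSG00000022996) lies on chromosome 15 from 98770712 to 98778150, minus strand. Bmp2, a bone morphogenetic protein made in the placode, reached 10 CPM in 71 columns, or 30.0% (interval 24.2% to 36.2%). Column 227 had 935.1 CPM and WT-KCB cell 2 had 898.8 CPM. Bmp2 (ENSMUSG00000027358) lies on chromosome 2 from 133552159 to 133562885, plus strand. Both ligands were thus spread over many columns, and neither was at its highest in WT-KCB cell 2.

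Of the secreted inhibitors, Dkk4, a Wnt inhibitor that Wnt and Eda signals induce in placodes, had a count in only 4 of 237 columns. WT-KCB cell 2 had 831 counts, or 105.6 CPM (interval 98.6 to 113.1). The others were column 136 at 3.91 CPM, column 155 at 2.73 and column 157 at 1.05, so 3.91 CPM was the nearest value below the threshold. Dkk4 (ENSMUSG00000031535) lies on chromosome 8 from 22624043 to 22627547, plus strand. Sostdc1, an inhibitor of Bmp and Wnt signals found mainly around placodes, ran the other way. It reached 10 CPM in 155 columns, or 65.4% (interval 58.97% to 71.4%), with a median of 74.0 CPM over all columns and a highest value of 4590.4 CPM in column 230. In WT-KCB cell 2 it had 6 counts, or 0.763 CPM (interval 0.280 to 1.66). Sostdc1 (ENSMUSG00000036169) lies on chromosome 12 from 36314139 to 36318452, plus strand.

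Edar, the receptor for ectodysplasin A that placodes need to form, reached 10 CPM in 24 columns, or 10.1% (interval 6.60% to 14.7%). WT-KCB cell 2 had 676.4 CPM (interval 658.3 to 694.8), above column 147 at 253.4 and column 160 at 234.7. Edar (ENSMUSG00000003227) lies on chromosome 10 from 58600789 to 58675654, minus strand.

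Of the nuclear factors, Lhx2, a LIM homeodomain protein of placodes and hair follicle stem cells, had a count in 2 columns. WT-KCB cell 2 had 254 counts, or 32.3 CPM (interval 28.4 to 36.5). The other was column 58 at 6.91 CPM, a column with Col1a1 at 15821 CPM and Col3a1 at 35653 CPM and no Krt5 or Krt8 count. Lef1, the partner of beta-catenin on Wnt target genes, reached 10 CPM in 149 columns, or 62.9% (interval 56.4% to 69.04%), and was highest in column 122 at 1485 CPM. Trps1, a GATA-type repressor whose loss impairs hair growth, reached 10 CPM in 100 columns, or 42.2% (interval 35.8% to 48.8%), and was highest in column 189 at 2099.9 CPM. WT-KCB cell 2 held 572.6 CPM of Lef1 and 747.6 CPM of Trps1, levels that other columns exceeded for both genes. Lhx2 (ENSMUSG00000000247) lies on chromosome 2 from 38339281 to 38369733 and Lef1 (ENSMUSG00000027985) on chromosome 3 from 131110471 to 131224356, both on the plus strand. Trps1 (ENSMUSG00000038679) lies on chromosome 15 from 50654752 to 50890463, minus strand. Lef1 shares 1208 exon bases with Gm43352 on the other strand, and Trps1 shares 25 with Mir1907.

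Levels of different genes were compared in WT-KCB cell 2 only per kilobase of exon. On that scale Bmp2 stood highest at 252.8 CPM per kb, followed by Edar at 186.0. Fgf20 (94.3), Shh (88.9), Dkk4 (80.3), Wnt10b (67.5), Lef1 (65.2) and Trps1 (55.9) formed a narrow band. Lhx2 was lower at 7.35 CPM per kb, and Sostdc1 lowest at 0.428. Shh, Dkk4 and Fgf20, which few other columns held, were thus present in this cell at levels per length like those of Wnt10b and Lef1.

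Promoter sequence was read from a table of RefSeq promoters (GRCm38.p6) in which 4 of the 10 members were matched: Edar, Wnt10b, Lhx2 and Lef1, with 8 start sites. Shh, Dkk4, Fgf20, Bmp2, Trps1 and Sostdc1 were not matched in it. Since several members are known Wnt targets, the 250 bases before each start site were searched on both strands for CTTTGAT and CTTTGTT, the letters that Lef1 and its relatives bind. Of 32851 promoters of the same length, 3.21% hold CTTTGAT, 5.03% hold CTTTGTT and 8.06% hold either. Only the Edar entry held a match, which begins 233 bases before the start site at 58675696. The other 7 entries do not contain these letters in this window. The promoters of Edar (chr10:58675697-58675946, minus strand), Wnt10b (chr15:98778151-98778400, minus strand) and Lhx2 (chr2:38339031-38339280, plus strand) are shown 5′ to 3′, with capitals for the CTTTGAT match. They stand for a receptor, a ligand and a nuclear factor that each reached 10 CPM in WT-KCB cell 2.
Edar: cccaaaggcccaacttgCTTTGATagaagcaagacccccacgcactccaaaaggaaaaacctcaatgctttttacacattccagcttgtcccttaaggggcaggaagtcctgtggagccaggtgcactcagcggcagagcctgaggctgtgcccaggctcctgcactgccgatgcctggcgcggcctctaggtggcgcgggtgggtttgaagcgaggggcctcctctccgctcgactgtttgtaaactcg
Wnt10b: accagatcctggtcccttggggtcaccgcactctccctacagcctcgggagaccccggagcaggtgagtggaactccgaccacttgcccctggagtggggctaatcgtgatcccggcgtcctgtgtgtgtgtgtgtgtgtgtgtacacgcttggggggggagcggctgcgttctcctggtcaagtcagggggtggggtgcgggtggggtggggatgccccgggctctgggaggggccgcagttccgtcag
Lhx2: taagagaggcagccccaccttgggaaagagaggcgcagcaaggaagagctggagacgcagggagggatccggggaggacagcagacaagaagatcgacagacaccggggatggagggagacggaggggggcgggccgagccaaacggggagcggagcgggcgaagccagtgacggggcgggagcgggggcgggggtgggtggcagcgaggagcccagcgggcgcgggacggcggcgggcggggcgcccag
They were 58.8%, 66.8% and 72.8% G or C, against a median of 52.4% over all promoters, and held 11, 14 and 25 CpG against a median of 6.

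The comparison of WT-KCB cell 2 with the other 10 paired WT-KCB cells asks how far a single basal-layer cell departs from cells of the same embryo and label. In the other 10 cells Shh, Dkk4 and Lhx2 had no count at all. Set against a floor of 3 counts per cell, Shh was at least 592-fold higher in cell 2, Dkk4 at least 247-fold and Lhx2 at least 75.6-fold. Fgf20 had a count in 1 of the 10 cells, at 0.242 CPM. Edar had a median of 0.129 CPM in them, and 1 cell, WT-KCB cell 6, reached 94.3 CPM. Trps1 lay between 0 and 33.9 CPM with a median of 0.380. These 6 genes are among those for which the cell was picked out, so the gap restates that choice.

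Of the other 4 members, Wnt10b and Bmp2 were above the other cells by less than 4-fold, Lef1 was within their range and Sostdc1 was below it. Wnt10b ran from 0 to 107.5 CPM in the other 10 cells with a median of 22.6, and Bmp2 from 0.242 to 409.9 CPM with a median of 25.5. Cell 2 was above the highest of them by 2.14-fold for Wnt10b and 2.19-fold for Bmp2. Lef1 ran from 43.3 to 1090 CPM with a median of 355.7, a range that holds the level of cell 2. Sostdc1 ran from 100.2 to 1052 CPM with a median of 227.0, so every other cell lay at least 131 times above cell 2.

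A gene was called higher where cell 2 had at least 10 CPM and at least 4 times the highest other cell, and lower by the same rule reversed. By this rule 6 of the 10 members were higher (Shh, Dkk4, Fgf20, Lhx2, Edar and Trps1) and 1 was lower (Sostdc1). Over all 19790 genes with a count in these cells, 351 were higher, or 1.77%, and 293 were lower, or 1.48%. The members were named with this cell in view, so nothing is read from their count. On the log2 scale, with a pseudocount of 1 CPM, the median difference between cell 2 and the median of the other cells was 5.91 for the members and 0.00 for all genes.

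**Figure D2:**
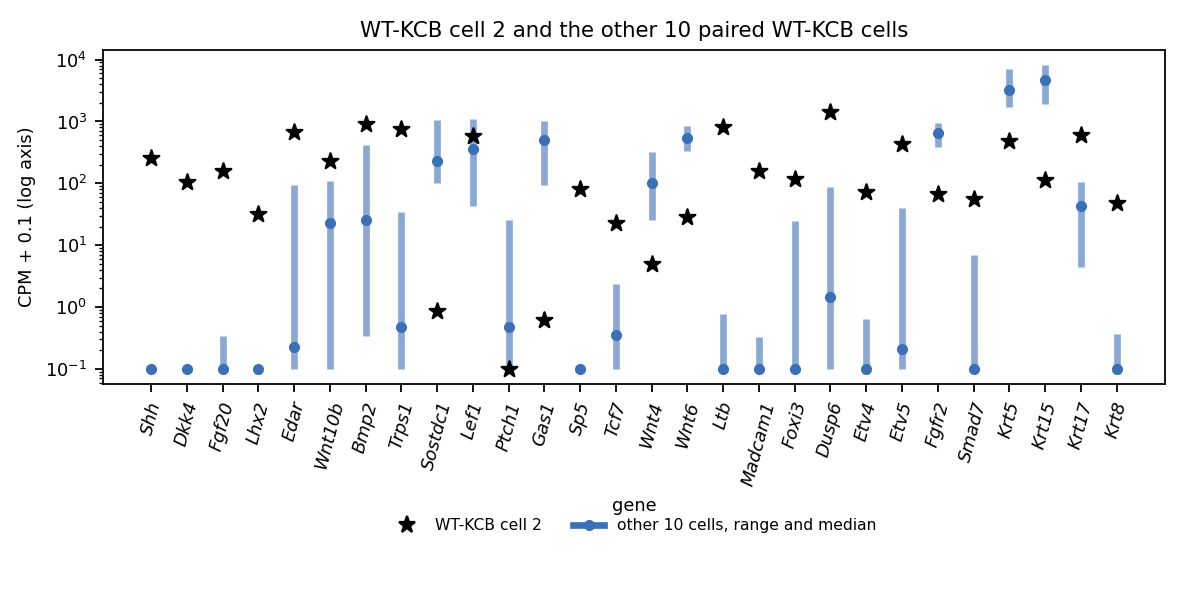
Level of placode genes, pathway genes and keratins in WT-KCB cell 2 (star) and in the other 10 paired WT-KCB cells (bar from lowest to highest, dot at the median), as CPM plus 0.1 on a log axis. Shh, Dkk4 and Lhx2 are at 0 in all 10 cells, and Sostdc1, Gas1, Wnt4, Wnt6 and Fgfr2 lie below the bars in cell 2.

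The genes of the pathway lists around the members are given beside the share over all genes, 1.77% higher and 1.48% lower by the same rule. Most genes of each list met the rule in neither direction, and the lists were not compared by a test. Of 15 genes of the Eda and NF-kB list, 3 were higher in cell 2 and none lower, with a median difference of 1.86 on the log2 scale. They were Ltb, which encodes lymphotoxin beta, at 822.1 CPM against at most 0.667 in the other cells, Madcam1, an adhesion molecule, at 158.9 against at most 0.222, and Foxi3, a forkhead factor of ectodermal placodes, at 116.3 against at most 24.5. The inhibitor Nfkbia, itself a target of NF-kB, had 1208 CPM against at most 423.3. Nfkb1, of the same list, lay below the other cells, at 0.254 CPM against 1.86 to 117.4. Neither gene met the rule.

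Of 11 genes of the Fgf list, 3 were higher and 1 was lower, with a median difference of 0.62. The higher genes all respond to Fgf signalling through ERK: the phosphatase gene Dusp6 at 1398 CPM against at most 86.0, and the ETS factor genes Etv4 at 71.7 against at most 0.534 and Etv5 at 425.6 against at most 40.5. The receptor gene Fgfr2 was lower, at 66.9 CPM against 382.6 to 953.2. Spry1, Spry2 and Spry4, of the same list, did not meet the rule. Spry1 had 70.1 CPM, within the 0.285 to 135.6 of the other cells, and Spry2 had 133.4 against at most 88.8. Spry4 had no count in cell 2 or the other cells.

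Of 24 genes of the Wnt list, 2 were higher and 2 lower, with a median difference of 0.43. Tcf7, a relative of Lef1, had 22.4 CPM and Sp5, a target of Wnt signalling, had 79.6 CPM. No other paired WT-KCB cell had a count of Sp5. The ligand genes Wnt4 (4.83 CPM against 25.4 to 318.4) and Wnt6 (28.7 against 331.9 to 849.6) were lower. Ctnnb1, which encodes beta-catenin, had 3975 CPM, outside the 485.9 to 1564 CPM of the other cells but short of the 4-fold rule.

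Of 18 genes of the Bmp list, Smad7, an inhibitor of receptor signalling, was higher at 55.4 CPM against at most 6.89, and none was lower. The list's median difference was 0.47. Of 14 other placode and adhesion genes none met the rule in either direction (median difference 0.30). The placode cadherin gene Cdh3 had 976.5 CPM against at most 492.7, and the stem cell receptor gene Lgr6 had 620.2 against at most 160.4.

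Of the Hedgehog genes, Gas1, a co-receptor, was lower at 0.509 CPM against 93.2 to 1012. The cell with the highest Shh had no count of the receptor and target gene Ptch1, of the target genes Gli1 and Hhip, or of the co-receptor genes Boc and Cdon. In the other 10 cells Ptch1 reached at most 24.97 CPM and Gli1 at most 24.2, and Hhip also had no count. Cell 2 did carry Disp1, which serves ligand release, at 84.4 CPM, within the 0.509 to 132.6 CPM of the other cells. Shh in this cell was thus not accompanied by Ptch1 or Gli1, which the 4 WT-KCP cells held at 13.1 to 341.1 CPM and 8.31 to 90.4 CPM.

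The 10 genes of largest ratio, besides Shh, were Wif1 (827.1 CPM), Ltb, Pthlh (741.6), Tgfb2 (400.3), Bdnf (303.9), Cyfip2 (281.2), Dpysl3 (265.5), Gad1 (256.6) and Zcchc18 (247.9). None of these 9 exceeded 0.667 CPM in another paired WT-KCB cell. Several encode secreted proteins: Wif1 is a Wnt inhibitor, Pthlh a hormone related to parathyroid hormone, Tgfb2 a transforming growth factor and Bdnf a neurotrophin. Gad1, which makes the transmitter GABA, reached 10 CPM in cell 2 alone of the 237 columns, and the others did so in 5 to 102 columns. The 5 of largest ratio in the lower direction were Snai2 (0.254 CPM against 172.8 to 1133), Lmo1 (0.509 against 203.2 to 835.7), Farsb (0 against 129.5 to 394.4), Txndc5 (0.254 against 121.1 to 307.1) and Itm2a (0 against 116.2 to 583.4). Snai2 and Lmo1 encode nuclear regulators, and the other 3 a tRNA synthetase subunit, a disulfide isomerase and a membrane protein.

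Cell 2 held less of the basal keratins than the other paired WT-KCB cells. Krt5 had 490.9 CPM against 1737 to 7156, Krt14 had 3498 against 3902 to 9464, and Krt15 was lower by the 4-fold rule, at 114.4 against 1945 to 8100. Trp63, the basal regulator p63, was within their range, at 305.6 CPM against 304.2 to 637.0. The simple keratins Krt8 (47.4 CPM against at most 0.267) and Krt18 (123.1 against at most 24.2) and Krt17 were higher by the rule. Krt17, at 612.9 CPM, stood above the 105.5 CPM of the highest other paired WT-KCB cell. It was below the 1715 CPM of the lowest paired WT-KCP cell. All 5 genes of the basal keratinocyte marker list and all 3 of the epithelial list reached 10 CPM (sums 4478 and 1464 CPM, led by Krt14 and Epcam). The basal sum was below the 9514 to 24752 CPM of the other 10 cells, and the epithelial sum was within their 1143 to 3175 CPM. The simple keratin list had 2 of 4 at that level (sum 173.8 CPM, led by Krt18 at 123.1) with Krt19 at 0. The periderm list had 1 of 6 (sum 613.4, led by Krt17), and the suprabasal list 2 of 5 (sum 60.5, led by Lor).

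Markers of other lineages were mostly at 0 in cell 2. The Merkel list summed to 2.54 CPM (0 of 5 at 10 CPM, led by Sox2, with Krt20 and Atoh1 at 0), the neuron list to 1.27 CPM (0 of 4, Tubb3 alone), and the melanocyte, endothelial and immune lists to 0. The fibroblast list summed to 1123 CPM, which was Dcn alone, with the other 7 of 8 genes at 0. Dcn lay between 163 and 1003 CPM in the other 10 WT-KCB cells, and the source of these reads was not tested.

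In the WT-KCI cell all 10 members were at or below 0.970 CPM. The 4 WT-KCP cells had no Dkk4 or Lhx2 count, but they held Sostdc1 at 683.9, 974.3, 871.5 and 383.6 CPM and Lef1 at 156.9, 91.8, 325.1 and 450.7 CPM in cells 1 to 4. Edar had 0.875, 4.56, 99.7 and 131.0 CPM, Wnt10b 9.19, 32.4, 15.7 and 118.0 CPM, and Trps1 0.583, 51.6, 41.9 and 367.5 CPM. Shh had 0.292, 0, 0 and 31.7 CPM, Fgf20 0.583, 0.713, 5.57 and 1.89 CPM, and Bmp2 1.75, 0, 0 and 16.1 CPM. WT-KCP cell 4 was the highest of the 4 cells for Shh, Edar, Wnt10b, Bmp2, Trps1 and Lef1 and the lowest for Sostdc1.

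**Figure D3:**
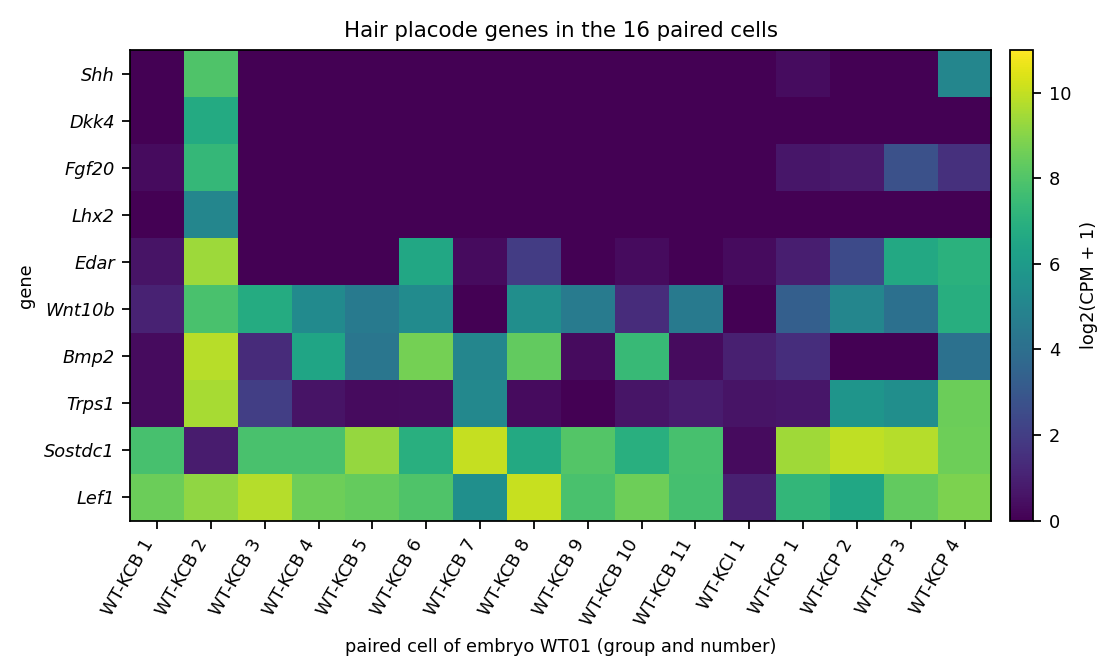
Level of the 10 placode genes, as log2(CPM + 1), in each of the 16 paired cells of embryo WT01, by labelled group and cell number. Shh, Dkk4 and Lhx2 stand out in WT-KCB cell 2 and Sostdc1 is nearly absent there, while WT-KCP cell 4 has Shh at 31.7 CPM.

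The search over all columns found Shh at 10 CPM or more in 5 columns besides WT-KCB cell 2, none with Dkk4. All 6 Shh columns had Trps1 and Lef1 at 10 CPM or more, 5 had Bmp2, 4 had Sostdc1, 3 had Edar and 2 had Wnt10b. Among all 237 columns the shares were 42.2% for Trps1, 62.9% for Lef1, 30.0% for Bmp2, 65.4% for Sostdc1, 10.1% for Edar and 17.7% for Wnt10b. The columns of Shh fell into 2 sets by their keratins: the 2 paired cells had Krt5 at 490.9 CPM or more and Krt14 at 1508 or more, and the other 4 had Krt8 at 319.4 CPM or more and Krt5 at no more than 58.8.

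WT-KCP cell 4 had Krt5 at 1041 CPM, Krt14 at 1508, Krt17 at 2819, Krt8 at 72.7 and Krt18 at 70.9. It differed from WT-KCB cell 2 in 3 genes that respond to Hedgehog, with Ptch1 at 213.9 CPM, Gli1 at 11.03 and Hhip at 19.23. It also had Sox9, a factor of the hair follicle, at 291.2 CPM, where cell 2 had no count, and Atoh1, a Merkel cell regulator, at 35.6 CPM. Like cell 2, it had Pthlh (311.7 CPM), Bdnf (396.7), Wif1 (249.6), Foxi3 (95.03), Dusp6 (885.6), Etv4 (53.1) and Etv5 (186.8). Other WT-KCP cells also held some of these genes: Dusp6 had at least 285.2 CPM in all 4, and Pthlh, Etv4 and Etv5 reached 554.7, 54.7 and 231.5 CPM in another of them. Sox9 lay between 110.8 and 470.9 CPM over the 4 cells. Several other genes that were higher in cell 2 were low or absent in WT-KCP cell 4. Ltb had 11.3 CPM there, Madcam1 0.630 and Smad7 0.315, and Sp5, Tcf7 and Gad1 were at 0.

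Of the 4 unpaired Shh columns, 3 had the simple keratins Krt8 and Krt18 both at 100 CPM or more. All 4 also had the basal markers Krt15, at 220.3 to 893.1 CPM, and Trp63, at 37.7 to 219.9 CPM. The basal markers Krt14 and Col17a1 were at no more than 4.25 and 0.566 CPM in them. Column 188 had Shh at 110.2 CPM with Krt8 at 1273, Krt18 at 705.0, Krt15 at 893.1 and Krt5 at 0.838. Column 152 had Shh at 39.8 CPM with Krt8 at 1297, Krt18 at 528.2 and no Krt5. Column 194 had Shh at 14.6 CPM with Krt8 at 1745 and Krt18 at 1599. Column 186, with Shh at 57.5 CPM, was the mixed case, with Krt8 at 319.4, Krt18 at 34.7, Krt15 at 620.5 and Krt5 at 58.8. The fibroblast list summed to 731.9 CPM in column 188 (2 of 8 genes at 10 CPM, led by Col3a1 at 616.6), 66.6 in column 186 (1 of 8, led by Dcn at 65.99), 2973 in column 152 (2 of 8, led by Dcn at 2661) and 2536 in column 194 (3 of 8, led by Col3a1 at 2227). Col1a1, Pdgfra, Lum and Twist2 were at 0 in all 4, and the part of these reads in the result was not tested. In all 4 columns Dkk4, Fgf20, Lhx2 and Wnt10b had 0 counts, as did Foxi3, Ltb, Madcam1 and Etv4. Ptch1 was at 31.6 CPM in column 188, 20.9 in column 186, 20.8 in column 194 and 14.7 in column 152. All 4 shared Trps1, at 62.7 to 215.2 CPM, and Lef1, at 68.01 to 663.3 CPM. Sostdc1 was at 148.7 to 684.0 CPM in 3 of them and at 0.555 CPM in column 152, and Edar was at 10 CPM or more in column 194 alone, with 62.3 CPM.

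Column 136, singled out after its values were seen, had the most members of any column without Shh. It had Krt5 at 1876 CPM, Krt14 at 4266, Krt15 at 2148, Krt17 at 1375 and Trp63 at 761.4. Of the members it had Fgf20 at 112.6 CPM, Edar at 175.2, Wnt10b at 18.5, Bmp2 at 493.8, Trps1 at 112.1, Sostdc1 at 122.9 and Lef1 at 262.2, with Dkk4 at 3.91 and no count of Shh or Lhx2. Of the pathway genes that were higher in cell 2, it had Dusp6 at 1484 CPM, Etv4 at 140.0, Etv5 at 400.05 and Foxi3 at 125.4. Ltb, at 1.07 CPM, Madcam1, at 0, and Nfkbia, at 299.9, were far below cell 2. Gas1 was low at 0.355 CPM and Ptch1 at 0, as in cell 2, but Gli1 had 46.7 CPM. Sp5 had 25.6 CPM, Smad7 had 1.78 CPM and Tcf7 was at 0. Of the genes of largest ratio in cell 2, Wif1, Pthlh and Gad1 were at 0 in column 136. The fibroblast list summed to 2692 CPM in this column, of which Dcn was 2691, and its part in these values was not tested.

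Column 143, also singled out after its values were seen, also had Edar with hardly any Sostdc1. It and WT-KCB cell 2 were the only 2 of the 24 Edar columns with Sostdc1 below 10 CPM. It had Edar at 77.2 CPM, Bmp2 at 634.4, Trps1 at 169.6 and Lef1 at 30.97, with Krt14 at 6036. Shh, Dkk4, Fgf20, Lhx2 and Wnt10b had no count. Foxi3 at 80.1 CPM, Madcam1 at 156.5, Dusp6 at 786.7, Etv4 at 71.0 and Etv5 at 921.2 were present, and Gas1 was near 0. Of the other pathway genes higher in cell 2, Ltb, Sp5 and Smad7 had no count, and Tcf7 had 1.24 CPM. Columns 110 and 126 shared Fgf20 with Wnt10b, Bmp2 and Lef1, but not Trps1.

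**Figure D4:**
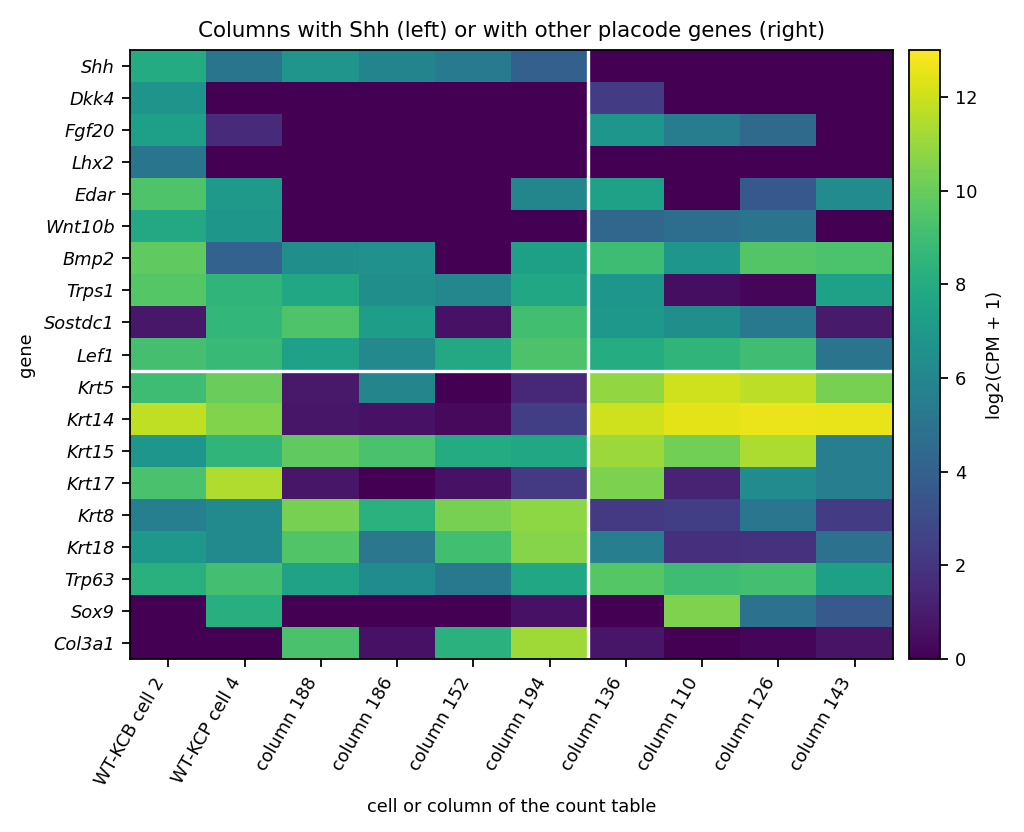
Level, as log2(CPM + 1), of the placode genes (above the line) and of keratins, Trp63, Sox9 and Col3a1 (below it) in the 6 columns with Shh at 10 CPM or more (left) and in 4 columns with Fgf20 or Edar and no Shh (right). Dkk4 and Lhx2 reach 10 CPM in WT-KCB cell 2 alone, and columns 188, 152 and 194 combine Shh with Krt8 and Krt18.

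Edar and Wnt10b often occurred in the same columns. Of the 24 Edar columns, 15 also had Wnt10b (62.5%), against 17.7% of all columns, and those 15 were 35.7% of the 42 Wnt10b columns. Of the Edar columns, 19 were in the range with Krt5 and Krt14 both at 100 CPM or more, where 51.7% of columns had Wnt10b. Lef1 was at 10 CPM or more in 23 of the Edar columns and Sostdc1 in 22. All 4 Fgf20 columns had Wnt10b, Bmp2 and Lef1, and 3 had Edar. Across the experiment, 32 columns had none of the 10 genes at 10 CPM, 56 had 3 of them, and 6 had at least 6.

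Columns with the simple keratins Krt8 and Krt18 both at 100 CPM or more were then compared with other marker ranges, to see whether placode genes also occur in cells of that kind. The ranges are levels of markers and not the study's groups, and a column may lie in more than 1. There were 84 columns in the simple keratin range, none paired with a cell, 60 in the basal range (Krt5 and Krt14), 9 in the suprabasal range (Krt1 and Krt10) and 79 in the collagen range (Col1a1 and Col3a1). The basal and simple ranges shared 3 columns, and 12 columns were in no range. Median totals were 7250395 counts in the simple and 7776533 in the basal range, with medians of 9705 and 11702 detected genes.

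Edar and Wnt10b were rarer in the simple keratin range, and Shh was about as rare in both. Shh reached 10 CPM in 3 of its 84 columns, or 3.57% (exact interval 0.743% to 10.1%), and in 2 of 60 in the basal range. Dkk4, Fgf20 and Lhx2 reached it in 0 of 84, with an exact upper limit of 4.30%. In the basal range they were rare too, in 1, 4 and 1 of 60 columns. For Dkk4 and Lhx2 that column was WT-KCB cell 2. Edar did so in 5 of 84, or 5.95% (1.96% to 13.3%), against 19 of 60, or 31.7% (20.3% to 44.96%), in the basal range. Wnt10b did so in 10 of 84, or 11.9% (5.86% to 20.8%), against 31 of 60, or 51.7% (38.4% to 64.8%). The columns come from at most 10 embryos that cannot be assigned, so these shares describe the columns and were not compared by a test.

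Trps1 ran the other way, and Bmp2 was alike in both ranges. Trps1 reached 10 CPM in 63 of 84 simple keratin columns, or 75% (64.4% to 83.8%), with a median of 93.0 CPM. In the basal range it did so in 14 of 60, or 23.3% (13.4% to 36.04%), with a median of 0.349 CPM. Bmp2 did so in 32 of 84, or 38.1%, and 26 of 60, or 43.3%. Sostdc1 was present in 78.6% of the simple and 88.3% of the basal columns, and Lef1 in 66.7% and 91.7%. In a summary whose 6 genes were chosen after values were seen, at least 1 of Shh, Dkk4, Fgf20, Lhx2, Edar and Wnt10b reached 10 CPM in 16 of 84 simple columns (19.05%), in 36 of 60 basal columns, and in 0 of the 9 suprabasal and 79 collagen columns. Genotype, preparation and the qPCR screen could not be told apart from the keratin levels, because these columns have no label.

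**Figure D5:**
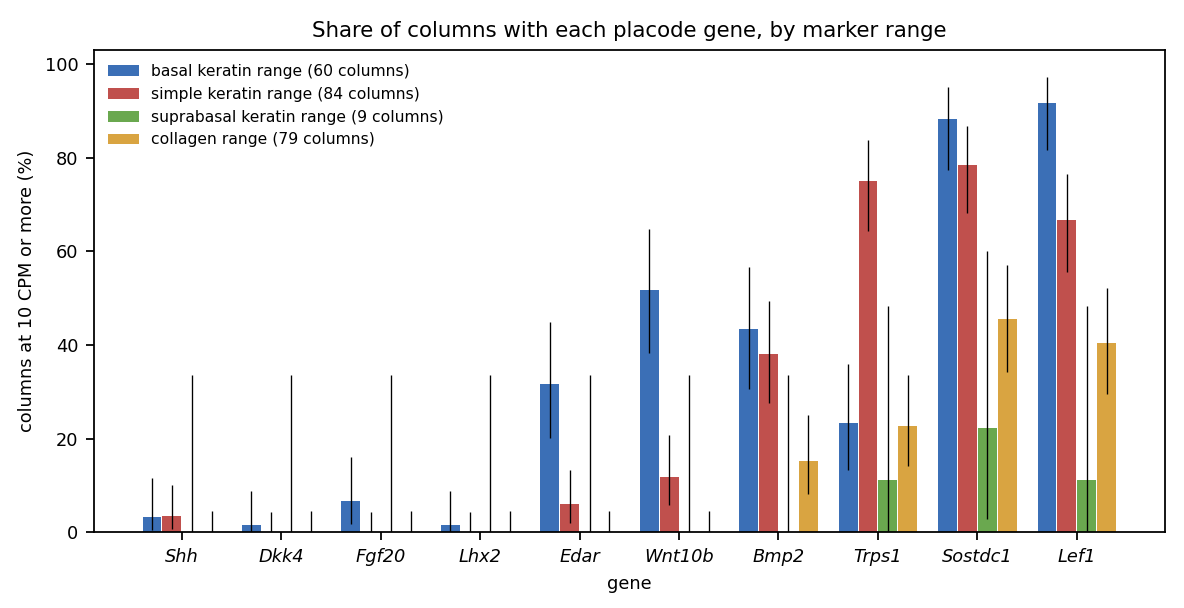
Percent of columns with each placode gene at 10 CPM or more in 4 marker ranges, with exact 95% binomial intervals as lines. Edar and Wnt10b are more frequent in the basal keratin range (31.7% and 51.7%) than in the simple keratin range (5.95% and 11.9%), and Trps1 is more frequent in the simple keratin range (75% against 23.3%).

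The pathway genes that were higher in WT-KCB cell 2 differed in how they fell over the ranges. Foxi3 reached 10 CPM in 13 of 60 basal columns and 1 of 84 simple columns, Etv4 in 12 and 2, Etv5 in 19 and 8, Dusp6 in 36 and 35, and Tcf7 in 5 and 3. Ltb and Madcam1 each did so in 5 basal columns and no simple column. Sp5 did so in 2 and 0. Smad7 was more frequent in the simple range, with 20 of 84 columns against 5 of 60. Some of these genes were also frequent among the 79 collagen columns, with Dusp6 in 47, Sp5 in 42 and Etv5 in 22, while Tcf7 was in 7, Smad7 in 4, Etv4 in 1 and Foxi3, Ltb and Madcam1 in 0. Among genes that did not meet the rule in cell 2, Edaradd, the adaptor of Edar, reached 10 CPM in 41 basal and 2 simple columns, and the Wnt receptor gene Fzd10 in 56 and 5. Wnt6 was common to both ranges, in 57 of 60 basal and 80 of 84 simple columns. Within the simple range, Krt15 reached 10 CPM in 59 columns, Krt5 in 27, Krt14 in 16 and Trp63 in 64. Of the fibroblast markers Col3a1 did so in 42 and Col1a1 in 5, and their part in these shares was not tested.

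In the collagen range 4 members were found, Sostdc1 in 36 of 79 columns, Lef1 in 32, Trps1 in 18 and Bmp2 in 12. The suprabasal range held Sostdc1 in 2 of 9 columns and Trps1 and Lef1 in 1 each. The other 6 members were below 10 CPM in every column of both ranges.

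Genes were ranked by their likeness to Shh and Dkk4, as Pearson's r across the 237 columns between log2(CPM + 1) of the gene and the mean of Shh and Dkk4 on that scale. The columns share embryos, preparation and depth, so r is a description. Of 17779 genes with at least 10 CPM in at least 3 columns, the 10 highest were Gm11520 (r = 0.57), Cabp1 (0.56), Sel1l3 (0.54), Ltb (0.53), 9530036O11Rik (0.53), Mmp9 (0.51), Gm42603 (0.48), Tll1 (0.47), Gm11613 (0.47) and Fgf20 (0.46). Dkk4 and Lhx2 did not pass the filter. Of these genes 9530036O11Rik overlaps the exons of Shh, Ltb is a target of NF-kB, and Mmp9 and Tll1 encode extracellular proteases. Edar was at rank 46 (r = 0.33), Trps1 at 166, Bmp2 at 211, Wnt10b at 347, Lef1 at 456 and Sostdc1 at 9145 (r = -0.01). The ranking rests on WT-KCB cell 2, since without it 1 of the 10 genes was shared.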

How the data were processed

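Single mouse skin cells were profiled by SMART-Seq HT. The authors aligned reads to mm10 with HISAT2, counted them with featureCounts on Ensembl release 97, and deposited estimated counts (expected counts) per gene and cell. Of the nonzero values 23.2% carried a fraction, and all were rounded. CPM is the rounded count over the column total times 1000000. The 16 columns paired with a labelled cell were grouped by label (WT-KCB, WT-KCP and WT-KCI), and 221 columns stayed unlabelled. Genes were named by a fixed rule: the members, the pathway lists, the cell type markers, the 10 genes most like Shh and Dkk4, and the 10 higher and 5 lower genes of largest ratio in WT-KCB cell 2. The members and lists were chosen with earlier results of these data known. No test between groups was made, and gaps among the 4 WT-KCP cells were set against Dixon's critical value as a description. Intervals are exact (Poisson for counts, Clopper-Pearson for shares). The rule for cell 2 and the likeness ranking were run on simulated data with planted genes, as a check of the code only. The simulated noise was set in advance and not fitted to these cells, so it gives no error rate for them. Gene positions came from GENCODE M21. Alternatives were other thresholds, folds, filters, pseudocounts and correlations, fractional counts, thinned counts, totals without genes rich in rRNA reads, and leaving out cells. For the comparison of WT-KCB cell 2, fractional counts, thinning and those totals were added after seeing the data. The tools were scipy 1.17.1, numpy 2.4.6 and pandas 2.3.3, with matplotlib 3.10.9 for plots, in Python 3.11.15.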

Additional observations from a re-analysis of the deposited data

Results flagged for a closer look

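In the 4 WT-KCP cells, 3 of the 10 genes had 1 cell far above the others, and it was WT-KCP cell 4 each time. Shh had 31.7 CPM there against at most 0.292 in the other 3 cells, Bmp2 had 16.1 CPM against at most 1.75, and Trps1 had 367.5 CPM against at most 51.6. The gap to the nearest cell was 0.991, 0.891 and 0.861 of the whole range, above Dixon's 95% critical value for 4 samples. Chance exceeds that value in about 1 of 20 groups, and 10 genes, chosen with these data in view, were looked at in the same 4 cells. Cells of 1 embryo are not replicate samples, and the search for Shh also picked out WT-KCP cell 4. The gaps are therefore a description, and nothing is read from the critical value. The cause was not tested.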

How the results depend on the processing

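WT-KCB cell 2 was the 1 column with Shh and Dkk4 at 1, 5, 10 and 20 CPM, with fractional counts, with totals without genes rich in rRNA reads, and with columns thinned to 1000000 counts. No column fell under 1000000 counts or 5000 detected genes. The number of genes higher in cell 2, 351 in the main setting, was 705 at 2 times the highest other cell and 250 at 8 times. It lay between 366 and 387 with each other WT-KCB cell left out in turn. The listed genes higher lay between 6 and 7 in the same way, with 7 without WT-KCB cell 3, and were 8 at 2 times and 5 at 8 times. With fractional counts, thinned counts and totals without genes rich in rRNA reads, all added after seeing the data, 352, 350 and 356 genes were higher, with 6 listed genes each time. Of the 10 genes most like Shh and Dkk4, 9 were shared with a pseudocount of 0.1 CPM, 1 with Spearman's correlation, 0 with a count in at least 3 columns as the filter, and 1 without WT-KCB cell 2. Apart from that cell, the cause of these changes was not tested. The share of simple keratin columns with at least 1 of 6 placode genes, 19.05%, was 27.4%, 19.05% and 17.9% at 1, 5 and 20 CPM, and 20% and 19.8% with Krt8 and Krt18 at 50 and 200 CPM, all within its counting interval. Single genes moved at lower thresholds: Dkk4 to 4, Fgf20 to 16 and Lhx2 to 2 columns at 1 CPM, and Lhx2 to 2 at 5 CPM. No paired analysis was possible because the paired columns come from 1 embryo.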

Other observations

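Shh, Dkk4, Fgf20, Lhx2 and Edar were highest in WT-KCB cell 2, and the other 5 members were highest elsewhere. Sostdc1 had 4590.4 CPM in column 230, Trps1 had 2099.9 CPM in column 189 and 1190 CPM in column 193, Wnt10b had 1762 CPM in column 229, and Bmp2 had 935.1 CPM in column 227. Lef1 had 1485 CPM in column 122 and 1136 CPM in column 234. Among the paired cells, Lef1 was highest in WT-KCB cell 8, at 1090 CPM.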
